A study of Mus musculus with 6 samples.

Results

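The transcripts described here are 10 marker genes of neutrophils and monocytes, S100a8, S100a9, Csf3r, Cxcr2, Retnlg, Il1b, Ccr2, Lyz2, Ly6c2 and Cd14, out of 54532 gene identifiers measured in mouse liver. They were chosen by name as markers of these cells, and all 10 symbols had 1 identifier each through GENCODE vM21. The 6 libraries were made from liver of untreated mice, 3 labelled wild type (WT) and 3 labelled as a liver-specific knockout of Arid2 (LKO), whose product binds DNA within PBAF, a complex that remodels chromatin. The labels give neither the strain, sex or age of the mice nor how the deletion was driven, and nothing in them states that the libraries are separate animals. Each p-value therefore measures only how these samples spread, which may be technical. The series title asks about fat accumulation in liver and the kinase JAK2. RNA came from whole liver, with neutrophils and monocytes as a minority of its cells, so fewer cells of a type and less RNA per cell cannot be told apart in any value below.

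Neutrophils and monocytes are short-lived myeloid cells that leave the bone marrow for the blood and pass through the liver sinusoids. Granulocyte colony-stimulating factor, read by the receptor encoded by Csf3r, drives neutrophil production, and chemokines read by CXCR2 (neutrophils) and CCR2 (inflammatory monocytes) draw the cells out of marrow and blood. In the liver, bacterial products from the gut reach these cells and the resident macrophages, the Kupffer cells, through CD14 and the toll-like receptor TLR4. Several of the 10 genes are not private to one cell: Lyz2 is also read in Kupffer cells, Cd14 and Il1b in macrophages, and Cd14 in hepatocytes exposed to inflammatory signals.

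S100a8 and S100a9 encode the paired chains of calprotectin, the main cytosolic protein of neutrophils, and lie 22596 bases apart on chromosome 3, on opposite strands with no gene of the tables between them. The sequences before S100a8, S100a9 and Cxcr2 are shown because the comparisons below turn on these genes. They come from RefSeq promoter windows (GRCm38.p6), cut to the 250 bases before the RefSeq start and, where GENCODE vM21 places the first exon earlier, to the bases before that exon. Capitals mark matches, on either strand, to GAGGAA, the core bound by the myeloid factor PU.1, or to TTGCNNAA, a C/EBP pattern, where N is any base. The S100a8 stretch is chr3:90668821-90668977, plus strand, 157 bases. The S100a9 stretch is chr3:90695722-90695971, minus strand, 250 bases. The Cxcr2 stretch is chr1:74153744-74153988, plus strand, 245 bases.
S100a8: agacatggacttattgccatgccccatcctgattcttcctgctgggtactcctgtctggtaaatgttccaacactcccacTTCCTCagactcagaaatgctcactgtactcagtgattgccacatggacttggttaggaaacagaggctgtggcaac
S100a9: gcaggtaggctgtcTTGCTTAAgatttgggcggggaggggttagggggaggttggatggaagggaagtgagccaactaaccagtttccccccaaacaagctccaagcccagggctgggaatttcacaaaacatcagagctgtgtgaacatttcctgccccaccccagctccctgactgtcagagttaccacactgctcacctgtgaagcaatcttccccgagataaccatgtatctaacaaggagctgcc
Cxcr2: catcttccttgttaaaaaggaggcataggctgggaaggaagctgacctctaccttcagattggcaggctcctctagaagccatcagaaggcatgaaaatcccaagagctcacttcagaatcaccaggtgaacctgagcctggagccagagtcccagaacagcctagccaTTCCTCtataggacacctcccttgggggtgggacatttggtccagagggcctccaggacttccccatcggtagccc
The match before S100a8 began 170 bases before the RefSeq start, and a further one lay 36 bases before it, inside the part not printed and next to a TATAAA at 30 bases. The S100a9 window held no GAGGAA and 1 TTGCNNAA, at 236 bases, and the Cxcr2 window held 1 GAGGAA, at 81 bases. Cd14 was left out of this search. Of the 9 genes searched, 4 held GAGGAA in the 250 bases (S100a8, Csf3r, Cxcr2 and Ly6c2), against 23.3% of 32851 windows of all genes. Each gene was counted once, although Ly6c2 had more than 1 window, whereas the share of all genes is per window. TTGCNNAA was found for 2 of 9 (S100a9 and Retnlg), against 9.56% of windows, and TATAAA for 2 of 9 (S100a8 and Il1b), against 12.4%. These are matches of letters only, and the data hold no measurement of binding.

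The values are FPKM, reads scaled to merged exon length and library size, so levels can be set side by side between genes. Steps in the FPKM gave back reads, 13947787 to 18159285 per library. These were whole for most genes but not for Cd14, whose reads are approximate. Arid2 did not separate the groups (1.74 to 2.65 FPKM in WT and 1.33 to 2.55 in LKO; log2 difference -0.05 ± 0.24 SE, limma adjusted p = 0.974), so it does not check the labels; WT and LKO below are the labels of the libraries. The libraries numbered 1 stood apart, with 2003 (WT) and 2368 (LKO) genes at 1 to 5 reads, and the other 4 libraries had 3913 to 4263. S100a8, Cxcr2, Retnlg, Il1b and Ly6c2 lay in that range in at least 1 library. Mitochondrial genes took 10.2% to 20.7% of reads in WT and 27.6%, 7.72% and 4.76% in LKO replicates 1 to 3. Liver identity was clear in all 6 libraries, with the albumin gene Alb between 24010 and 44282 FPKM.

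All 10 genes had a higher mean in LKO than in WT, but none passed the threshold, and which LKO libraries lay above the WT range differed between genes. It was all 3 for S100a8 and Cxcr2, replicates 1 and 2 for S100a9 and Cd14, replicates 2 and 3 for Lyz2, replicate 1 alone for Csf3r, Il1b and Ccr2, and replicate 2 alone for Retnlg and Ly6c2. The mean was higher in LKO for 50.3% of the 22574 genes above 0 in any library. The threshold was an adjusted p of 0.05 in limma-trend on log2(FPKM + 1), fitted over the 11672 genes whose mean reached 0.5 FPKM, of which 0.00857% were called higher in LKO and 0.0343% lower. Of the 10 genes 7 were above that minimum and were tested, and 0 of 7 were called. By limma, S100a8, S100a9 and Lyz2 had an unadjusted p under 0.05, as did 4.28% of all genes tested in the higher direction. S100a8, Retnlg and Il1b reached the minimum only through the LKO libraries (WT means under 0.5 FPKM), so their direction is partly set by the filter. Cxcr2, Ccr2 and Ly6c2 lay under it and are given by their values and an exact permutation test, which cannot go below p = 0.1 with 3 against 3. The median log2 difference of the 10 genes was 0.54, and that of all genes above 0 was -0.0041. The 10 genes share 6 libraries and were chosen with earlier results known, so they are not independent observations.

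**Figure D1:**
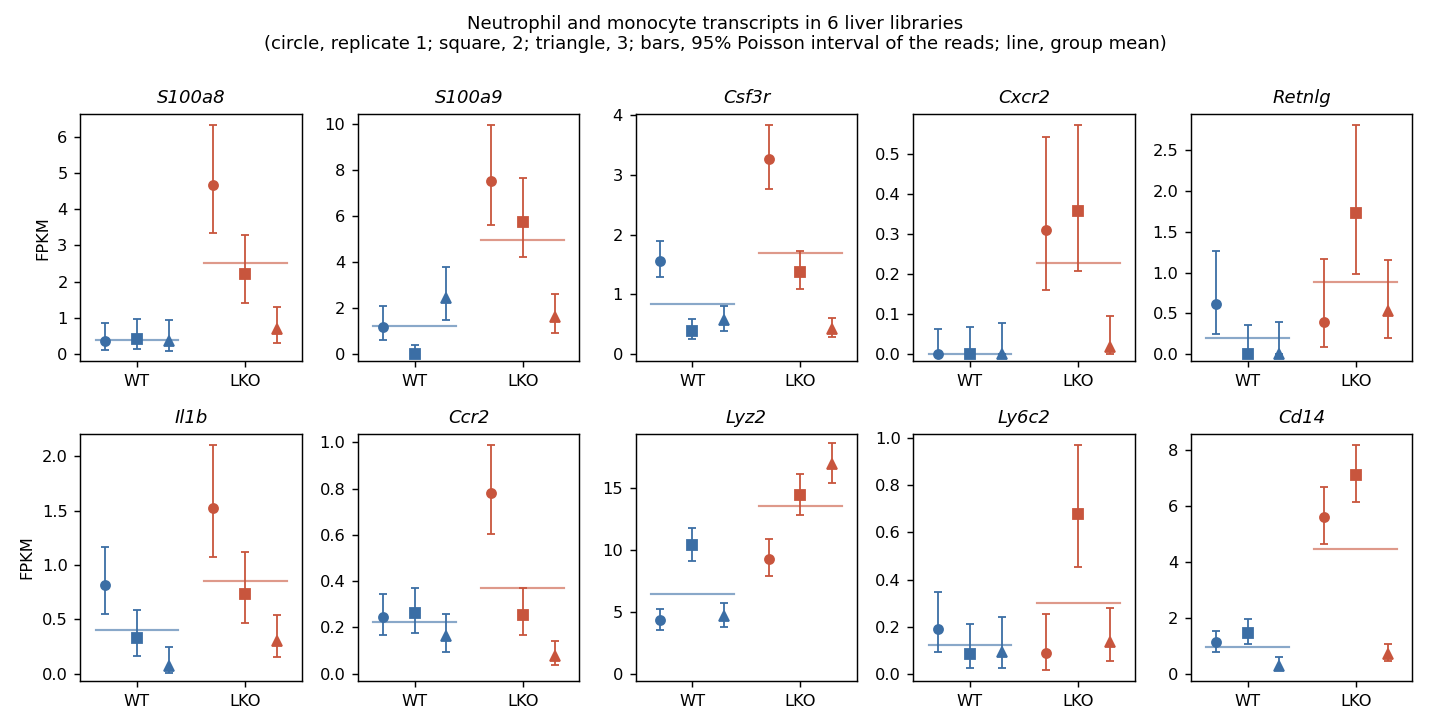
FPKM of each gene in the 3 WT (blue) and 3 LKO (red) libraries. Symbols give the replicate number and lines the group means, each panel on its own linear axis. Bars give the 95% Poisson interval of the reads (counting error only, approximate for Cd14). S100a8, S100a9, Cxcr2 and Cd14 were above every WT library in LKO replicates 1 and 2, and Lyz2 alone was highest in LKO replicate 3 (17.0 FPKM).

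Among the neutrophil cytosolic proteins, S100a8 (ENSMUSG00000056054, mm10 chromosome 3, 90668978 to 90670035, plus strand) had 5, 5 and 4 reads in the 3 WT libraries, worth 0.374, 0.410 and 0.369 FPKM. LKO replicates 1 to 3 had 41, 24 and 9 reads, worth 4.65, 2.21 and 0.683 FPKM. The WT libraries lay close together, every LKO library lay above them, and the LKO libraries spread over more than the difference between the groups. The interval of the 9 reads in LKO replicate 3 was 4.12 to 17.1 reads. Its lower end, 0.312 FPKM, was below all the WT values, so the interval covered them. The WT intervals reached up to 0.872 to 0.956 FPKM and covered the value of LKO replicate 3. The closeness of the WT values rests on 4 or 5 reads each. The means were 0.384 ± 0.0222 and 2.52 ± 2.001 FPKM (SD, n = 3 in each; the log2 difference was 1.18 ± 0.41 SE with a limma adjusted p = 0.436). S100a8 was the only one of the 7 tested genes whose groups did not overlap, where 8% of genes tested had every LKO library above every WT library. It was among the tested genes only through its LKO libraries, so this comparison is partly set by the filter.

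S100a9 (ENSMUSG00000056071, chromosome 3, 90692632 to 90695721, minus strand) measured 1.19, 0 and 2.45 FPKM across WT and 7.54, 5.76 and 1.61 across LKO (replicates 1, 2 and 3 of each). LKO replicates 1 and 2 were above all WT libraries, and LKO replicate 3, with 16 reads, lay below WT replicate 3, with 20. WT replicate 2 had no read of S100a9 at a depth where 3 reads would be 0.327 FPKM, although S100a8 had 5 reads there. The means were 1.22 ± 1.23 and 4.97 ± 3.04 FPKM (SD, n = 3; log2 difference 1.44 ± 0.57 SE, limma 95% interval 0.10 to 2.78, adjusted p = 0.4997). The ratio of S100a9 to S100a8 in FPKM was 3.19, 0 and 6.65 in the WT libraries and 1.62, 2.60 and 2.36 in the LKO libraries, from as few as 4 reads of S100a8. In both groups S100a9 was the second most abundant of the 10 genes after Lyz2 by its mean over all libraries (3.09 against 10.01 FPKM).

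Of the neutrophil receptors, Csf3r (ENSMUSG00000028859, chromosome 4, 126024550 to 126044440, plus strand) did not separate the groups. It was at 1.57, 0.394 and 0.568 FPKM in WT and at 3.27, 1.38 and 0.423 in LKO replicates 1 to 3. LKO replicate 1 was above all WT libraries, LKO replicate 2 lay between WT replicates 1 and 3, and LKO replicate 3 lay between WT replicates 2 and 3. The log2 difference was 0.46 ± 0.43 SE (limma adjusted p = 0.820), and it was 0.05 without LKO replicate 1 and 0.84 without LKO replicate 3.

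Cxcr2 (ENSMUSG00000026180, chromosome 1, 74153989 to 74161246, plus strand), the receptor for CXCL1 and related chemokines, had no read in any WT library, which over the group allows up to 3 reads, or 0.01875 FPKM. It had 12, 17 and 1 reads in LKO replicates 1 to 3, or 0.310, 0.357 and 0.0173 FPKM. The groups did not overlap, as for 5.07% of genes above 0 in any library. However, the value of LKO replicate 3 is a single read, and 3 reads in that library would be 0.0518 FPKM. Summed over the group, LKO had 30 reads, or 0.2079 FPKM, which was 11.1-fold the floor of 3 reads over the WT group. This ratio leaves out the counting error of the 30 LKO reads, so it is no lower bound, and LKO replicate 3 does not reach it. The exact two-sided permutation test of the 6 values gave p = 0.1, the smallest possible, and 0.5 adjusted over the 10 genes.

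Retnlg (ENSMUSG00000022651, chromosome 16, 48872621 to 48874496, plus strand), a secreted resistin-like protein of mouse neutrophils, had 7, 0 and 0 reads in WT and 3, 16 and 6 in LKO replicates 1 to 3. Its FPKM were 0.612, 0 and 0 in WT and 0.398, 1.73 and 0.533 in LKO. WT replicate 1 lay above LKO replicates 1 and 3, so only LKO replicate 2 was beyond the WT range (log2 difference 0.62 ± 0.33 SE, limma adjusted p = 0.638). S100a8 and S100a9 were both highest in LKO replicate 1 instead.

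Il1b (ENSMUSG00000027398, chromosome 2, 129364570 to 129371139, minus strand) encodes the precursor of interleukin 1 beta. It was at 0.816, 0.328 and 0.0671 FPKM in WT and at 1.53, 0.738 and 0.304 in LKO replicates 1 to 3. LKO replicate 1 alone was above the WT range, and LKO replicate 3 lay below WT replicate 2 (log2 difference 0.38 ± 0.31 SE, limma adjusted p = 0.788). These values rest on 2 to 37 reads per library. The antisense gene Il1bos overlaps Il1b, and its mean was 0.0272 FPKM.

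Among the monocyte genes, Lyz2 (ENSMUSG00000069516, chromosome 10, 117277331 to 117282321, minus strand), the lysozyme of phagocytes, was the most abundant and had another order of libraries. It was at 4.34, 10.4 and 4.67 FPKM in WT and at 9.27, 14.4 and 17.0 in LKO replicates 1 to 3, from 96 to 424 reads. LKO replicates 2 and 3 were above all WT libraries, and LKO replicate 1 lay below WT replicate 2. The means were 6.47 ± 3.41 and 13.6 ± 3.92 FPKM (SD, n = 3; log2 difference 1.01 ± 0.38 SE, limma 95% interval 0.13 to 1.90, adjusted p = 0.474). Its neighbour Lyz1, 5475 bases away, had 5 reads in WT replicate 1 and 0 in the other 5 libraries. In their GENCODE transcripts, 5.96% of the 75-base windows of Lyz2 also occur in Lyz1.

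Cd14 (ENSMUSG00000051439, chromosome 18, 36725067 to 36726798, minus strand), the co-receptor that hands lipopolysaccharide to TLR4, was at 1.12, 1.45 and 0.285 FPKM in WT and at 5.61, 7.08 and 0.703 in LKO replicates 1 to 3. LKO replicates 1 and 2 stood well above all WT libraries, and LKO replicate 3 lay between WT replicates 3 and 1. Rounded reads were 123, 192 and 23 in LKO replicates 1 to 3 and 8 to 44 in WT. The FPKM of Cd14 did not fall on whole reads with the exon length used, so its reads are approximate. The means were 0.951 ± 0.599 and 4.46 ± 3.34 FPKM (SD, n = 3; log2 difference 1.26 ± 0.59 SE, limma adjusted p = 0.586). Without LKO replicate 3 the difference was 1.96 (limma adjusted p = 0.0962), and without LKO replicate 2 it was 0.83. The arrangement with LKO replicates 1 and 2 above every WT library and LKO replicate 3 not was shared by S100a9 and Cd14 and by 7.52% of all genes tested.

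Ccr2 and Ly6c2, which mark the inflammatory monocytes that enter tissue from blood, were low in all libraries. Ccr2 (ENSMUSG00000049103, chromosome 9, 124101950 to 124113557, plus strand) was at 0.246, 0.261 and 0.161 FPKM in WT and at 0.780, 0.256 and 0.0779 in LKO replicates 1 to 3. It was highest in LKO replicate 1 and lowest in LKO replicate 3, on both sides of the WT range (exact two-sided permutation p = 0.8). Ly6c2 (ENSMUSG00000022584, chromosome 15, 75108158 to 75111970, minus strand) was at 0.189, 0.0830 and 0.0935 FPKM in WT and at 0.0862, 0.677 and 0.134 in LKO. It had 29 reads in LKO replicate 2 and 3 to 10 in the other 5 libraries (exact two-sided permutation p = 0.6). Its near copy Ly6c1 had 1 to 7 reads per library, and 9.46% of the 75-base windows of Ly6c2 also occur in Ly6c1, so part of these few reads may be shared. Neither gene separated the groups.

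In order of mean FPKM over the 6 libraries, the genes were Lyz2 (10.01), S100a9 (3.09), Cd14 (2.71), S100a8 (1.45), Csf3r (1.27), Il1b (0.630), Retnlg (0.545), Ccr2 (0.297), Ly6c2 (0.211) and Cxcr2 (0.114). The ranges of every pair of neighbours in this order overlapped across libraries. Lyz2 was above S100a9, and Csf3r above Il1b, in all 6 libraries, whereas Retnlg was above Ccr2 in only 3. By library, the highest value lay in LKO replicate 1 for 5 genes (S100a8, S100a9, Csf3r, Il1b and Ccr2), in LKO replicate 2 for 4 (Cxcr2, Retnlg, Ly6c2 and Cd14) and in LKO replicate 3 for Lyz2. LKO replicate 3 was within the WT range for 6 genes, above it for S100a8, Cxcr2 and Lyz2, and below it for Ccr2. Summed over the 9 genes other than Lyz2, with the approximate reads of Cd14 among them, the reads were about 242, 120 and 87 in WT. They were about 486, 452 and 112 in LKO replicates 1 to 3. As summed FPKM these were 6.12, 2.92 and 3.996 in WT and 24.2, 20.2 and 4.49 in LKO, so the sum in LKO replicate 3 was below that of WT replicate 1 on both scales.

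**Figure D2:**
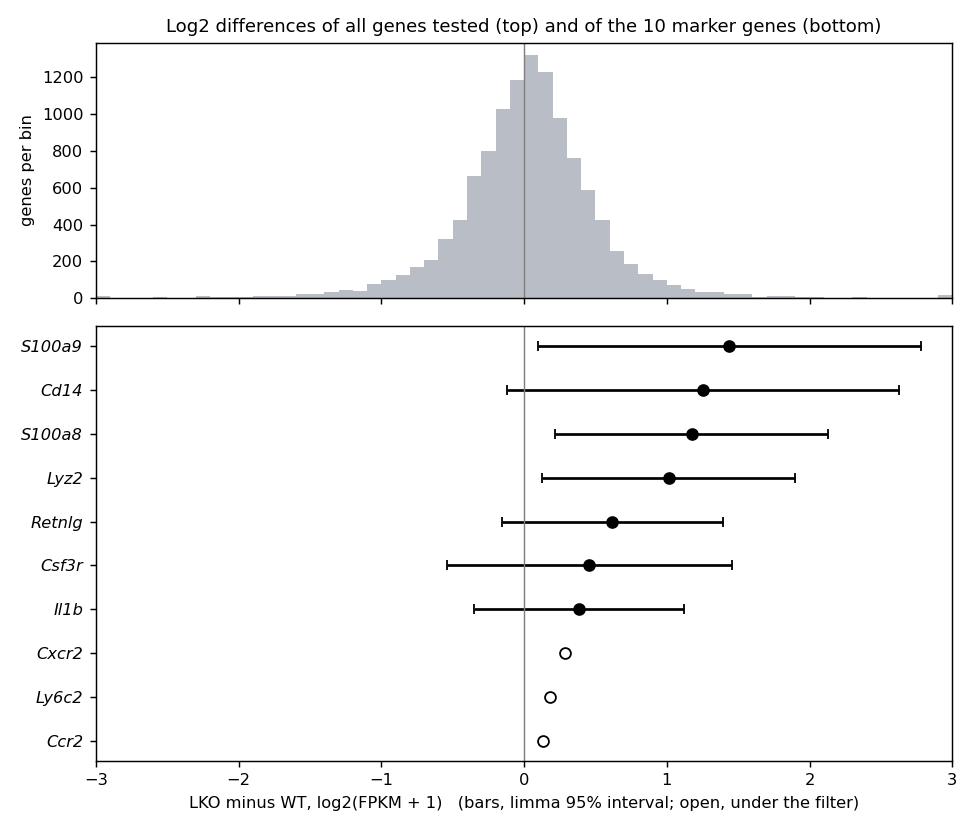
Top, log2 differences (LKO minus WT) of the 11672 genes tested, in bins of 0.1, with values beyond 3 placed in the end bins; bottom, the 10 genes, as limma estimates with 95% intervals (filled) or, under the filter, as the difference of mean log2 values (open). All 10 points lie above 0, and the intervals of S100a8, S100a9 and Lyz2 do not reach it before adjustment.

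The size of most differences depended on single LKO libraries. With 1 library left out in turn, the log2 difference lay between 0.75 and 1.62 for S100a8, lowest without LKO replicate 1 and highest without LKO replicate 3. It lay between 0.95 and 1.95 for S100a9, lowest without WT replicate 2, and between 0.82 and 1.37 for Lyz2. For Il1b it was 0.14 without LKO replicate 1, and for Retnlg 0.32 without LKO replicate 2. Without both replicate 1 libraries the differences were 0.74 for S100a8, 1.18 for S100a9, 1.07 for Cd14 and 1.05 for Lyz2. None of the 7 genes was called by limma with any 1 library left out, where 0 to 3 of them had an unadjusted p under 0.05.

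**Figure D3:**
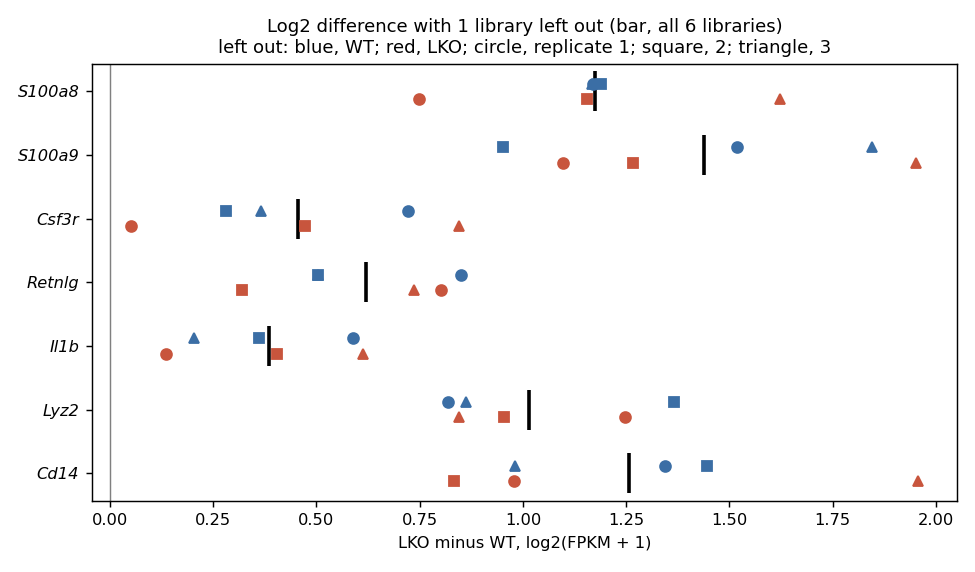
Log2 difference (LKO minus WT) of the 7 tested genes with all 6 libraries (black bar) and with each library left out (symbol and colour of the library left out). Every value is above 0; leaving out LKO replicate 3 (red triangle) gives the highest value for S100a8, S100a9, Csf3r, Il1b and Cd14, and a value below the black bar for Lyz2 (0.84 against 1.01).

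Other neutrophil genes were taken from lists of names. Of 19 granule protein genes 4 were tested and 0 were called, with a median log2 difference of 0.20 against 0.03 for all genes tested. The granule protein genes Ctsg, Ltf and Ngp were listed at 0 in all 6 libraries, and the surface marker Ly6g was also at 0 in all of them. These genes too were named after their values were seen. Lcn2, a granule protein that hepatocytes also secrete, was at 7.81, 0.672 and 2.71 FPKM in WT and at 140, 376 and 6.66 in LKO replicates 1 to 3 (limma adjusted p = 0.389), the same order of LKO libraries as Cd14. Mmp8, the neutrophil collagenase, was named after its values were seen: it had 0, 0 and 1 reads in WT and 13, 13 and 1 in LKO. Prtn3, the protease proteinase 3, lay the other way, at 1.97 ± 1.67 FPKM in WT and 0.343 ± 0.113 in LKO (SD, n = 3, limma adjusted p = 0.628). Other granule protein genes under the minimum were mixed, on few reads. Pglyrp1, also named after its values were seen, had 10, 1 and 6 reads in WT and 0, 1 and 0 in LKO.

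Of 26 neutrophil surface and signalling genes 9 were tested and 0 were called (7 of 9 fitted above 0, against 54.1% of all genes tested; median 0.17). Itgb2, the common integrin chain of leukocytes, averaged 0.682 ± 0.293 FPKM in WT and 1.21 ± 0.617 in LKO (SD, n = 3; limma adjusted p = 0.754). The formyl peptide receptor gene Fpr1 was at 0.827 ± 0.789 and 0.335 ± 0.125 FPKM (SD, n = 3; limma adjusted p = 0.794). On the scale of the mean of log2(FPKM + 1) relative to WT, this list stood at 0.67 in LKO replicate 1 and at -0.13 and -0.02 in LKO replicates 2 and 3. Mcemp1 and Clec4d, named after their values were seen, had no read in WT. They had 6, 2 and 4, and 1, 5 and 2 reads in LKO replicates 1 to 3. Other genes of this list under the minimum were mixed. Itgam, for example, had 33, 0 and 4 reads in WT and 0, 13 and 1 in LKO.

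Of 24 other monocyte genes 11 were tested and 0 were called (7 fitted above 0, median 0.13). Fn1, fibronectin, which hepatocytes also secrete, was at 36.7, 68.3 and 59.3 FPKM in WT and at 70.8, 120 and 115 in LKO (limma adjusted p = 0.521). Every LKO library was above every WT library, as for 8% of all genes tested. Plac8, found in several leukocytes, measured 8.55, 3.38 and 0.959 FPKM in the LKO libraries against 1.32 to 2.25 in WT, and its spread in LKO covered the WT values. Csf1r, the macrophage growth factor receptor gene, named for its role after its values were seen, was at 2.38 ± 1.15 and 2.70 ± 1.27 FPKM (SD, n = 3; limma adjusted p = 0.954).

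Of 14 genes for ligands that act on these receptors, 10 lay under the minimum of 0.5 FPKM, 4 were tested and 0 were called, with a median of 0.04. Cxcl1, a ligand of CXCR2 made by many cells including hepatocytes, was at 14.9, 13.9 and 25.2 FPKM in WT and at 401, 122 and 14.01 in LKO replicates 1 to 3 (log2 difference 2.30 ± 1.07 SE, limma adjusted p = 0.585). LKO replicates 1 and 2 were above all WT libraries and LKO replicate 3 was within them, which is the arrangement seen for S100a9 and Cd14. Csf3, the ligand of the receptor encoded by Csf3r, was listed at 0 in all libraries, and Ccl2, a ligand of CCR2, was between 0.0925 and 0.638 FPKM; both were named for their role after their values were seen. On the vessel wall, Icam1, which binds leukocyte integrins, was at 1.28 ± 0.369 and 2.83 ± 1.39 FPKM (SD, n = 3; limma adjusted p = 0.559), and 0 of 5 tested adhesion genes were called.

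Around CD14, of 10 tested genes of lipopolysaccharide sensing 0 were called, 9 were fitted above 0 (54.1% of all genes tested) and 4 had every LKO library above every WT library (8% of all genes tested), with a median of 0.44. The adaptor gene Tirap was at 2.17, 2.54 and 2.78 FPKM in WT and at 5.62, 5.68 and 2.96 in LKO (limma adjusted p = 0.5003). Lbp, the plasma protein of hepatocytes that passes lipopolysaccharide to CD14, was at 10.5 ± 1.18 and 16.3 ± 2.85 FPKM (SD, n = 3; limma adjusted p = 0.559). Myd88, the adaptor shared by most toll-like receptors, measured 12.4, 14.01 and 6.07 FPKM in the LKO libraries. The last value was inside the WT range of 5.72 to 6.89. Tlr4 itself lay under the minimum, was not tested, and went the other way on few reads. It had 13, 10 and 15 reads in WT and 3, 1 and 5 in LKO replicates 1 to 3. Its FPKM were 0.121, 0.102 and 0.173 in WT and 0.0425, 0.0115 and 0.0474 in LKO, without overlap. Tlr4 was named for its role after its values were seen.

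Of 7 tested relatives and receptors of S100A8 and S100A9, 0 were called and all 7 were fitted above 0 (median 0.57), as were 54.1% of all genes tested. The receptor gene Ager, under the minimum and named after its values were seen, had 13, 1 and 12 reads in WT and 5, 1 and 0 in LKO. S100a10, a partner of annexin A2, was at 20.5, 49.2 and 60.0 FPKM in WT and at 186, 164 and 38.4 in LKO replicates 1 to 3 (limma adjusted p = 0.603). S100a13 was at 30.0 ± 4.75 and 51.2 ± 15.0 FPKM (SD, n = 3, limma adjusted p = 0.543). It was 1 of 2 tested genes of this list with every LKO library above every WT library, where 8% of all genes tested were. Around Il1b, 0 of 9 tested genes of interleukin 1 processing and signalling were called, 3 were fitted above 0, and they did not share a direction (median -0.03). Il1rn, the receptor antagonist, was at 0.300, 0.421 and 0.197 FPKM in WT and at 1.98, 2.31 and 0.894 in LKO (log2 difference 1.03 ± 0.25 SE, limma adjusted p = 0.275). Il18, a related cytokine, was at 11.6, 18.0 and 15.9 FPKM in WT and at 5.57, 4.53 and 4.14 in LKO (log2 difference -1.48 ± 0.26 SE, limma adjusted p = 0.149). Gsdmd, whose product forms the pores through which these cytokines leave, was at 15.4 ± 3.13 and 3.80 ± 2.40 FPKM (SD, n = 3; log2 difference -1.87 ± 0.38 SE, limma adjusted p = 0.187). Il18 and Gsdmd were the 2 genes of this list with every LKO library below every WT library, where 7.42% of genes tested were.

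**Figure D4:**
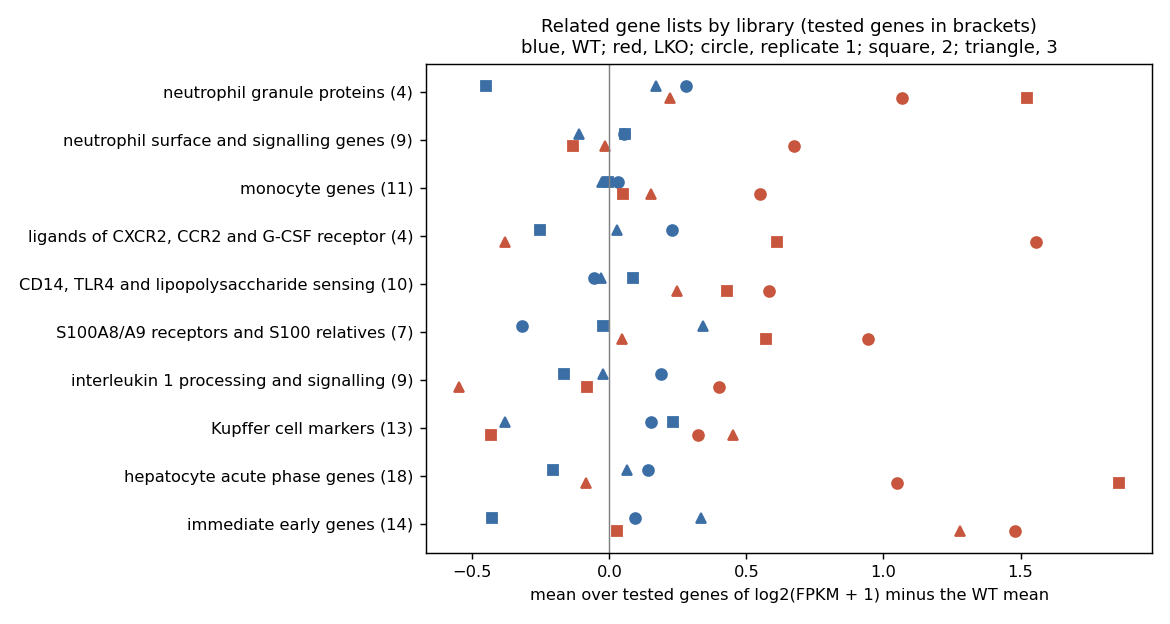
For each list, the mean over its tested genes of log2(FPKM + 1) minus the mean of the 3 WT libraries, by library (blue WT, red LKO; symbols give the replicate), with the 10 marker genes left out of every list. The granule, ligand and acute phase lists place LKO replicates 1 and 2 at 0.61 or higher and LKO replicate 3 between -0.38 and 0.22; in the granule and ligand lists (4 tested genes each, medians 0.20 and 0.04) Lcn2 at 4.29 and Cxcl1 at 2.30 had by far the highest log2 differences.

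Markers of other cells were set beside these values. Hepatocyte acute phase genes, 18 tested and 0 called, stood at 1.05, 1.86 and -0.09 in LKO replicates 1 to 3 on the same scale and between -0.20 and 0.14 in WT, so they separated the LKO libraries as Cd14, S100a9 and Cxcl1 did. Of these 18 genes 15 were fitted above 0 (54.1% of all genes tested), with a median of 1.22. Every LKO library was above every WT library for 5 (8% of all genes tested) and below for 1 (7.42%). Single genes differed from the list mean: Itih4 was at 217 to 248 FPKM in WT and at 680, 691 and 620 in LKO replicates 1 to 3. Summed, the acute phase genes reached 7496 to 8412 FPKM in WT and 7929 to 20588 in LKO. Their part in the values of Cd14 and Lcn2 was not tested. Of 13 tested Kupffer cell markers 0 were called and 10 were fitted above 0 (median 0.16). The Kupffer list summed to 79.7, 70.6 and 37.2 FPKM in WT and to 83.8, 35.9 and 90.2 in LKO replicates 1 to 3. It was highest in LKO replicate 3, as was Lyz2, but lowest in LKO replicate 2, where Lyz2 was at 14.4 FPKM, and none of its 15 genes was at 0 in all libraries. The Kupffer-restricted gene Clec4f was at 15.7 ± 10.4 and 13.97 ± 8.05 FPKM (SD, n = 3; limma adjusted p = 0.976).

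Lymphoid and blood markers were then summed in the same way. T and NK cell markers summed to 3.79 to 5.83 FPKM in WT and 2.42 to 4.399 in LKO, B and plasma cell markers to 23.0 to 70.3 and 9.13 to 17.6 FPKM, and erythroid markers, a measure of blood left in the tissue, to 139 to 330 and 91.2 to 149 FPKM. In all 3 lists 0 genes were called. Of 4 tested B and plasma cell markers 0 were fitted above 0 (54.1% of all genes tested), with a median of -1.27. Among them, 3 had every LKO library below every WT library (7.42% of all genes tested), and the sums of this list did not overlap. Of 5 tested erythroid markers 0 were fitted above 0 (median -0.78), and of 3 tested T and NK cell markers 1 was (median -0.08). Platelet markers summed to 1.255 to 2.76 FPKM in WT and 1.16 to 3.999 in LKO, dendritic cell, basophil and mast cell markers to 2.67 to 6.11 and 1.52 to 8.95 FPKM, sinusoidal endothelial markers to 33.3 to 43.3 and 19.6 to 48.9 FPKM, stellate cell markers to 26.9 to 32.0 and 25.6 to 37.4 FPKM, and biliary markers to 10.3 to 18.1 and 7.06 to 28.3 FPKM. The groups overlapped in each of these 5 lists. Immediate early genes, which respond to tissue handling as well as to signals, stood at 1.48, 0.03 and 1.28 in LKO replicates 1 to 3, an order unlike that of S100a8 or Cd14. Their part in the values was not tested.

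Myeloid transcription factor genes, 10 tested and 0 called, had a median of -0.10. Cebpd was at 3.20, 3.79 and 5.47 FPKM in WT and at 11.6, 16.6 and 8.33 in LKO (log2 difference 1.33 ± 0.32 SE, limma adjusted p = 0.251). Stat3, which acts downstream of the receptors for interleukin 6 and granulocyte colony-stimulating factor, was at 7.27 ± 0.154 and 18.8 ± 5.28 FPKM (SD, n = 3; limma adjusted p = 0.232). Both genes are also expressed in hepatocytes, and both had every LKO library above every WT library, as did 8% of all genes tested. Among the Ly6 and lysozyme relatives, 4 tested and 0 called (median -0.09), Ly6a was at 3.50 ± 0.560 and 2.22 ± 0.480 FPKM (SD, n = 3; limma adjusted p = 0.579), opposite in direction to Ly6c2.

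Likeness over the 6 libraries was ranked for S100a9, Ccr2 and Cd14. Among 8751 protein-coding genes with a mean reaching 1 FPKM, ranked by Pearson correlation of log2(FPKM + 1), Cd14 was followed most closely by Map7d1 (r = 0.996, Spearman rho 0.943), Trim8 (0.993, 0.943) and Nsrp1 (0.993, 1.00). Trim8 was at 11.2 to 16.4 FPKM in WT and at 36.0, 36.5 and 13.4 in LKO replicates 1 to 3. For S100a9 the closest were the transcript CR974586.3 (r = 0.985), Kdm4a (0.981) and Mrtfb (0.980), and for Ccr2 Arhgef5 (0.994), Fmnl2 (0.990) and Mcrip2 (0.987). These are descriptions of 6 points chosen as the highest of many genes, and the points share their libraries.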

How the data were processed

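RNA of 6 liver libraries was sequenced (1 μg of total RNA per NEBNext library, per the labels' protocols). The authors deposited 1 table per library with FPKM for 54532 Ensembl identifiers, read as FPKM from the values. Per the submitters' processing notes, the tools were DESeq2 1.20.0, featureCounts 1.5.0-p3, HISAT2 2.0.5 and CASAVA, and the build was mm10, with no roles stated. The annotation, strand setting and read length were not given in the sources used here. GENCODE vM21 (mm10) supplied symbols and exon lengths for 54495 identifiers. FPKM multiplied by exon length fell on whole multiples of 1 step per library (96.1% to 96.4% of values above 0, within 0.05 read), which gave reads; whether these are reads or fragments is not stated.

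Log2(FPKM + 1) was fitted by limma-trend (limma 3.58.1, R 4.3.3) with genotype as the only term and a robust empirical Bayes step, over genes whose mean reached 0.5 FPKM, with Benjamini-Hochberg adjustment at 0.05. It was tested on simulated data. Log2 differences on this scale understate changes of low genes. Single genes also had an exact permutation test (scipy 1.17.1). Poisson intervals (95%) and the floor of 3 reads cover counting error only. The 10 genes and all lists were chosen with earlier results of these data known. Within lists, up to 4 genes with the smallest p could be named, or the highest mean where fewer than 2 were tested, and the 3 highest in marker lists. The 3 genes most like S100a9, Ccr2 and Cd14 were ranked by Pearson correlation.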

Additional observations from a re-analysis of the deposited data

How the results depend on the processing

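Under 16 alternatives, every refitted difference of the 10 genes stayed above 0 (113 of 113 values). Settings that changed only the filter or added the replicate block return the main estimate, so their sign was fixed in advance. For Cxcr2, Ccr2 and Ly6c2 the only refit was of this kind. All refits draw on the same 6 libraries, so the count adds no independent support. Of the 113 values, 109 stayed uncalled. The 4 exceptions all came with array quality weights, whose estimation stopped before convergence and which called 1195 genes in all: 4 of 7 marker genes were then called, S100a8 (limma adjusted p = 0.0225), Retnlg (0.0256), Cd14 (0.0256) and Lyz2 (0.0364), whereas over all alternatives of these 4 genes the adjusted p reached 0.980 to 1. The count of genes called over all genes was 5 and moved to 1 with no filter, 3 with quantile normalization, 2 without both replicate 1 libraries and 0 without both replicate 3 libraries (1011 with an unadjusted p under 0.05 by limma), and lay between 0 (without WT replicate 3) and 17 (without LKO replicate 3) with 1 library left out. The median log2 difference of the tested marker genes was 1.01 and moved to 1.83 with a pseudocount of 0.1 and to 1.77 with voom on recovered reads; with 1 library left out it lay between 0.80 and 0.95. With the replicate number as a block, 0 genes were called (1478 with an unadjusted p under 0.05 by limma) and the median was 1.01. The deviations of same-numbered libraries correlated at 0.49, 0.30 and -0.02 for numbers 1 to 3, so the numbers were not taken to pair the samples; WT replicate 2 correlated best with LKO replicate 3 (0.45). Depth limits S100a8, S100a9, Cxcr2, Retnlg, Il1b, Ccr2 and Ly6c2, with at most 67 reads in any library.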

Other observations

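Cebpe, a transcription factor gene of late granulocyte development, had levels unlike those of the neutrophil markers. It was at 8.48, 9.30 and 9.13 FPKM in WT and at 8.18 and 12.8 FPKM in LKO replicates 1 and 3, from 129 to 302 reads, but had no read in LKO replicate 2. In that library S100a8 had 24 reads and Cxcr2 had 17. This pattern was noticed after the values were seen, and no test of it was run.

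Wfdc21, listed with the neutrophil granule genes, was among the most abundant genes of that list in liver, at 132 to 378 FPKM in WT and 145 to 380 in LKO, with a log2 difference of 0.02 ± 0.54 SE (limma adjusted p = 0.996). G0s2, listed with neutrophil genes and also known from lipid droplets, was at 23.5, 177 and 37.7 FPKM in WT and at 282, 60.4 and 86.6 in LKO (limma adjusted p = 0.777).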
